A study of Danio rerio with 21 samples.

Results

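The Gfi1 repressor family of the zebrafish consists of gfi1aa, gfi1ab and gfi1b, and its expression was followed across sorted embryonic cell populations. The 3 genes were found by symbol in the deposited comparison tables, which together list 3064 genes. All 3 members are listed for haemogenic endothelium (HE) against aortic roof endothelium (ARE). Only gfi1ab is listed for runx1 morpholino (MO) against non-injected HE, and no member is listed for the same treatment in non-endothelial tissue.

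RNA was sequenced from whole embryos that were dissociated and sorted at 28 to 30 hours post fertilisation (hpf). Every embryo, controls included, carried both transgenes of TgBAC(runx1P2:Citrine);Tg(kdrl:mCherry), Citrine being driven by a runx1 promoter (P2) and mCherry by that of the endothelial gene kdrl. HE is the double-positive gate with high Citrine (DP-R1hi) of non-injected embryos (Wt), ARE is the Wt double-positive gate with low Citrine (DP-R1lo), and the double-negative gate (DN) holds non-endothelial tissue. In the MO groups, the rest of each split batch of embryos received a runx1 morpholino, and DP-R1hi and DN cells were sorted from them. Each group has 3 libraries, each made from at least 3000 cells pooled over embryos. The gates rest on reporter fluorescence, which is retained in daughter cells, and the MO targets the gene whose promoter drives Citrine. Values of runx1 itself were not analysed here, so the knockdown was not checked in these libraries.

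Gfi1 and Gfi1b proteins are zinc-finger transcription factors that bind DNA and repress transcription. Their amino-terminal SNAG domain recruits a co-repressor complex that contains the histone demethylase Lsd1 (Kdm1a), CoREST proteins and histone deacetylases. In the mouse embryo they act downstream of Runx1 and silence the endothelial programme while haemogenic endothelial cells turn into blood cells. In zebrafish, gfi1aa and gfi1b are also known from primitive erythroid cells, and in the mouse Gfi1 is needed by the hair cells of the inner ear.

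In the RefSeq annotation of zebrafish assembly GRCz12tu, gfi1aa (NCBI gene 553814) lies on chromosome 2, gfi1ab (NCBI gene 798697) on chromosome 6 and gfi1b (NCBI gene 100151531) on chromosome 21. The tables were made on another assembly, so no position is given. The same annotation lists the symbol gfi1b among the older names of gfi1ab, and the rows used here were taken by the symbol printed in the tables. gfi1aa and gfi1ab are close duplicates, and how reads shared between them were assigned is not given in the sources used here. The only sequences of a member in the sources used here are the primers that the study designed to measure gfi1aa by quantitative PCR. They are shown, 5′ to 3′, because they define the part of the transcript by which the study followed this gene outside sequencing.
gfi1aa forward: agcgggtcctacaaatgcat
gfi1aa reverse: acagatttcgcaggcaaagg

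All 3 members were higher in HE than in ARE, by 37.5-fold for gfi1aa, 46.2-fold for gfi1ab and 1.99-fold for gfi1b as ratios of mean CPM (reads counted per gene, scaled by the authors to the effective size of each library). In MO HE, gfi1ab fell to 11.4% of its level in Wt HE. The tables hold only genes that the authors had already called on these same libraries at a false discovery rate under 0.05. A pass here is therefore a check of a listed gene under another model, not independent evidence. In the comparison of HE with ARE, 94.5% of the 2732 listed genes passed, 38.0% higher in HE and 56.5% lower. After rescaling libraries by median ratios over the listed genes, 1099 genes were called higher and 819 lower. Those ratios come only from genes already called, of which 1633 are listed as lower, so this rescaling recentres the list by construction. Here and in the MO comparison, the changed balance of directions is therefore no test of the authors' scaling.

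gfi1aa, a Gfi1-type repressor, had 205, 136 and 242 CPM in HE replicates 1, 2 and 3. In ARE it had 4.22, 2.83 and 8.51 CPM in the same order. Every HE library was above every ARE library, and the lowest HE value was 15.9-fold the highest ARE value. Taking the smallest step of each library's values as 1 read, these levels stand for 2329 to 4678 reads in HE and for 47 to 138 reads in ARE. The means were 194 ± 54.1 CPM (SD, n = 3) in HE and 5.19 ± 2.96 CPM (SD, n = 3) in ARE. On the log2(CPM + 1) scale the difference was 5.05 ± 0.33 (SE, 95% interval 4.31 to 5.78, limma, adjusted p = 4.09e-06). It was the largest positive difference of the 1099 genes listed as higher in HE.

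gfi1ab, the second Gfi1-type duplicate, had 32.6, 49.6 and 38.5 CPM in HE replicates 1, 2 and 3. In ARE it was close to the limit of detection, with 1.02, 0.361 and 1.23 CPM, which stand for 14, 6 and 20 reads. The exact 95% Poisson interval of the lowest of these, 0.361 CPM, runs from 0.133 to 0.786 CPM and overlaps that of ARE replicate 1, 0.556 to 1.71 CPM. These intervals cover counting error only, since the reads carry no molecular identifiers. The groups did not overlap, and the lowest HE value was 26.4-fold the highest ARE value. The means were 40.3 ± 8.62 CPM (SD, n = 3) in HE and 0.871 ± 0.455 CPM (SD, n = 3) in ARE. On the log2(CPM + 1) scale the difference was 4.47 ± 0.30 (SE, 95% interval 3.80 to 5.15, limma, adjusted p = 4.96e-06), the next largest after gfi1aa. With so few reads in ARE its size depends on the pseudocount, and it was 2.93 with a pseudocount of 5 and 5.25 with one of 0.25.

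gfi1b, which represses transcription in erythroid and megakaryocytic cells of mammals, had 58.2, 52.5 and 67.3 CPM in HE replicates 1, 2 and 3. In ARE it had 28.8, 39.9 and 20.7 CPM, and at least 336 reads were counted in every library of both groups. The groups did not overlap, but they lay close, the lowest HE value being 1.32-fold the highest ARE value. The means were 59.3 ± 7.44 CPM (SD, n = 3) in HE and 29.8 ± 9.63 CPM (SD, n = 3) in ARE. On the log2(CPM + 1) scale the difference was 1.01 ± 0.24 (SE, 95% interval 0.49 to 1.53, limma, adjusted p = 0.00840). It ranked 499th of the 1099 genes listed as higher. After the rescaling by median ratios it was 1.84. No overlap between groups was the rule in this table, at 98.1% of the listed genes.

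**Figure D1:**
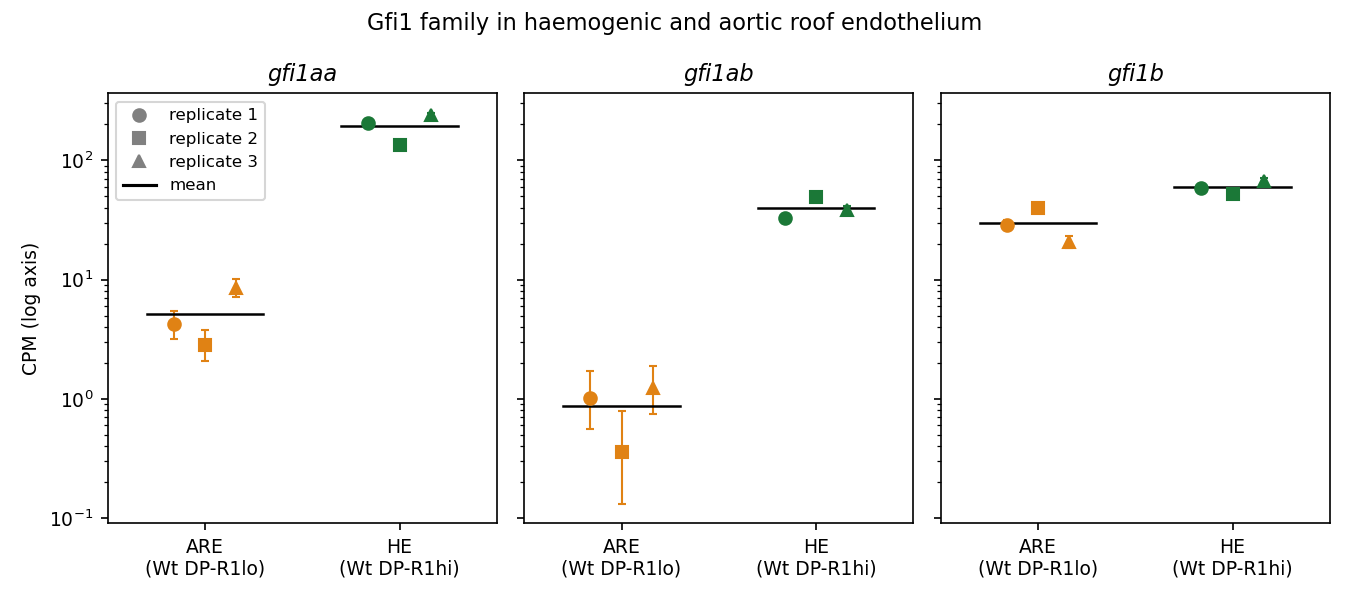
CPM of gfi1aa, gfi1ab and gfi1b (log axis) in the 3 ARE and 3 HE libraries, with the replicate shown by the symbol, exact 95% Poisson intervals as bars (hidden by the symbol where narrow) and group means as black lines. gfi1aa and gfi1ab lay at 2.83 to 8.51 and 0.361 to 1.23 CPM in ARE and at 136 to 242 and 32.6 to 49.6 CPM in HE, while gfi1b was at 20.7 to 39.9 CPM in ARE and 52.5 to 67.3 CPM in HE.

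Whether the members changed unlike each other was tested on the log2(CPM + 1) difference between pairs of them, first minus second, within each library. It was compared between HE and ARE. gfi1aa minus gfi1b averaged 1.66 in HE and −2.37 in ARE, a shift of 4.04. gfi1ab minus gfi1b averaged −0.56 in HE and −4.03 in ARE, a shift of 3.46. The groups did not overlap in either case (exact permutation test, two-sided, n = 3 and 3, p = 0.1, adjusted over 3 pairs 0.15). A p of 0.1 is the smallest that 3 against 3 libraries can give, so neither shift could pass. For gfi1aa minus gfi1ab the shift was 0.57, the groups overlapped and the exact permutation p was 0.3 (adjusted 0.3). The order of gfi1aa and gfi1ab by size of difference turned on the scale, since as a ratio of means gfi1ab had the larger value.

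Ratios within a library show the same in linear units. The CPM of gfi1aa was 3.52, 2.58 and 3.60 times that of gfi1b in HE replicates 1, 2 and 3, against 0.146, 0.0709 and 0.411 times in ARE. gfi1ab stood at 0.561, 0.945 and 0.573 of gfi1b in HE and at 0.0354, 0.00905 and 0.0595 of it in ARE. The gfi1aa to gfi1ab ratio was 6.29, 2.74 and 6.29 in HE and 4.14, 7.83 and 6.90 in ARE, and here the groups overlapped. Such ratios are not levels per transcript length, and no order of abundance between the genes was drawn from them.

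The members also varied unlike each other among replicates. HE replicate 2 was the lowest of its group for gfi1aa and gfi1b and the highest for gfi1ab. ARE replicate 3 was the highest of its group for gfi1aa and gfi1ab and the lowest for gfi1b. In HE the coefficient of variation (CV) was 27.8% for gfi1aa, 21.4% for gfi1ab and 12.5% for gfi1b, beside a median of 18.7% over all listed genes. In ARE it was 57.1%, 52.2% and 32.3%, beside a median of 19.8%.

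The median difference over all listed genes was −1.0 in log2(CPM + 1) as the authors scaled the libraries, and −0.21 after rescaling by median ratios. The members moved up with that shift, to 5.81, 5.05 and 1.84 after rescaling for gfi1aa, gfi1ab and gfi1b. No single library decided a member's call, as leaving out each in turn gave 4.75 to 5.41 for gfi1aa, 4.26 to 4.62 for gfi1ab and 0.78 to 1.24 for gfi1b.

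**Figure D2:**
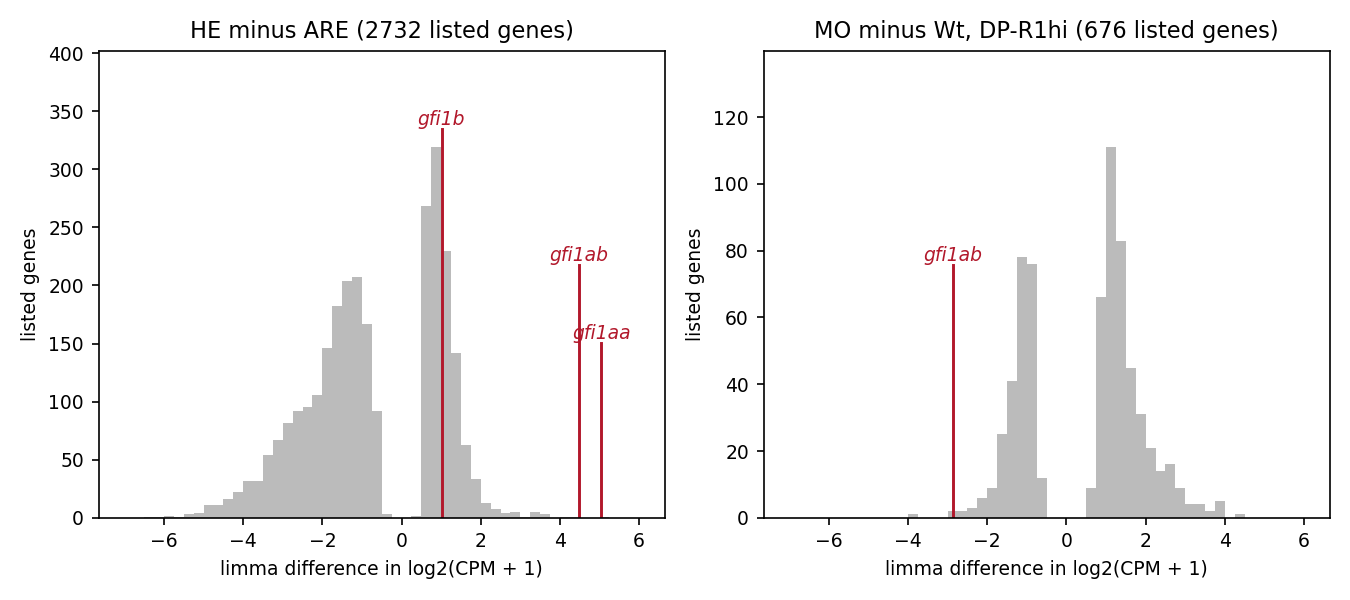
Number of listed genes (y axis) by limma difference in log2(CPM + 1) (x axis, bins of 0.25) for HE minus ARE and for MO minus Wt in DP-R1hi, with the members as red lines whose height carries no value. In HE minus ARE, gfi1aa at 5.05 and gfi1ab at 4.47 form the far right end and gfi1b at 1.01 lies within the bulk. In MO minus Wt, gfi1ab at −2.88 lies at the left end. The gap around 0 is where genes were not called by the authors.

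Knockdown of runx1 was compared with no injection to find genes that depend on this transcription factor in HE, and gfi1ab was the one member with values. It had 35.2, 53.4 and 42.3 CPM in Wt HE replicates 1, 2 and 3. In MO HE it had 4.94, 5.09 and 4.94 CPM, which stand for 61, 76 and 48 reads. All Wt libraries were above all MO libraries, as groups were apart for 93.2% of the 676 listed genes, and the lowest Wt value was 6.92-fold the highest MO value. The means were 43.6 ± 9.19 CPM (SD, n = 3) in Wt and 4.99 ± 0.0850 CPM (SD, n = 3) in MO. gfi1ab was thus 8.74-fold lower in MO, a difference of −2.88 ± 0.28 on the log2(CPM + 1) scale (SE, 95% interval −3.50 to −2.25, limma, adjusted p = 7.00e-04). In this comparison 41.4% of the listed genes passed, 26.3% higher in MO and 15.1% lower (178 and 102 genes), which turned to 56 higher and 237 lower after rescaling. The fall of gfi1ab was exceeded by that of 1 gene among the 255 listed as lower.

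The SD among the MO libraries understates their error. Their CV of 1.70% was below the 12.7% that counting alone would give at this depth, and the exact 95% Poisson intervals of the 3 libraries were 3.78 to 6.34, 4.01 to 6.37 and 3.64 to 6.55 CPM. The lowest Wt interval began at 32.2 CPM, far from all of these. The median difference of all listed genes was 1.02, and 0.28 after rescaling by median ratios, when gfi1ab was at −3.59. Leaving out each library gave −3.02 to −2.72, and the call was kept each time.

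The Wt HE libraries of both tables were the same libraries. Their CPM differed between tables by a constant factor of 1.08, 1.08 and 1.1 for replicates 1, 2 and 3, and the reads of gfi1ab were equal at 528, 851 and 744. The tables were scaled separately, so the level of gfi1ab in MO HE (4.94 to 5.09 CPM) and in ARE (0.361 to 1.23 CPM) can be set side by side but were not tested against each other. As the comparisons share these HE libraries, the high value in HE against ARE and the fall in MO are not independent of each other.

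**Figure D3:**
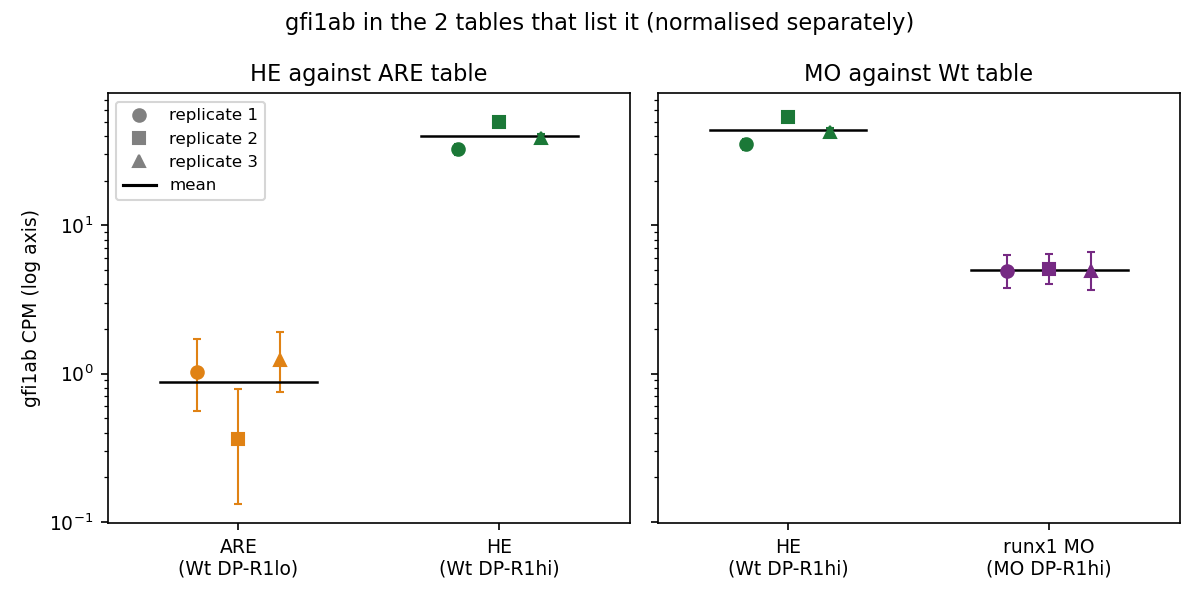
CPM of gfi1ab (log axis) in the table of HE against ARE (left) and in that of MO against Wt DP-R1hi (right), with replicates as symbols, exact 95% Poisson intervals as bars and means as black lines. The same 3 Wt HE libraries appear in both panels, at 32.6 to 49.6 and at 35.2 to 53.4 CPM, with MO at 4.94 to 5.09 CPM and ARE at 0.361 to 1.23 CPM.

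Values of gfi1aa and gfi1b in MO HE, and of all 3 members in DN cells, were not analysed here. Their absence from these lists is not evidence of an unchanged level. The authors' ranks show that 242 genes below their false discovery rate were left off the list for DP-R1hi and 41 off that for DN. In DN, 22.7% of the 176 listed genes passed.

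**Figure D4:**
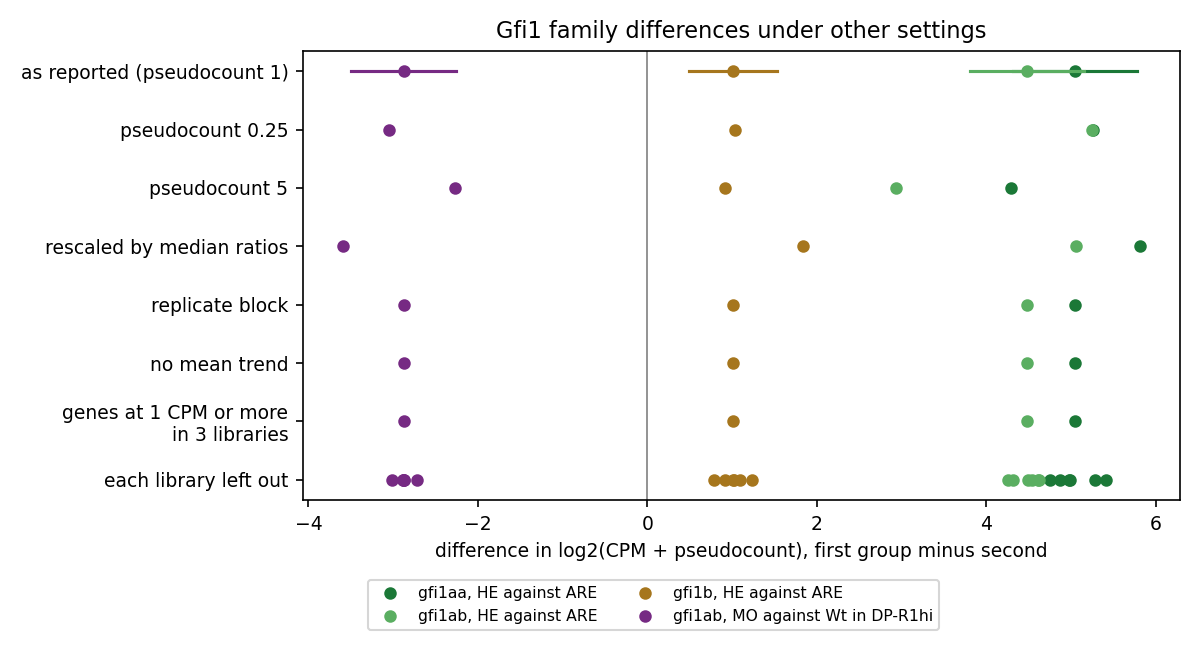
Difference in log2(CPM + pseudocount) of each member (x axis, HE minus ARE or MO minus Wt) under the settings named on the y axis, with 95% intervals as lines in the top row and 6 points per gene where each library was left out. gfi1aa ranged from 4.29 to 5.81, gfi1ab from 2.93 to 5.25, gfi1b from 0.78 to 1.84 and gfi1ab in MO from −3.59 to −2.27, each on 1 side of 0 throughout.

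Which other genes had a like pattern was measured by the root mean square difference (RMS) between centred log2(CPM + 1) profiles over the 6 libraries. In HE against ARE the gene most like gfi1aa was gfi1ab, at an RMS of 0.54, where the median over all listed genes was 3.06. dnmt3ba, a de novo DNA methyltransferase, followed at 0.66, pmp22b, a peripheral myelin protein, at 0.75, dachb, a dachshund-type transcription cofactor, at 0.79 and vwf, the von Willebrand clotting factor, at 0.80. The same genes were nearest to gfi1ab, led by dnmt3ba at 0.30 and dachb at 0.42, with gfi1aa at 0.54. dnmt3ba had 632 to 708 CPM in HE and 37.2 to 40.5 CPM in ARE, and vwf 34.6 to 38.2 and 0.782 to 2.98 CPM. These profiles rest on the same libraries and mainly on the step between both groups, so they are a description only.

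The genes most like gfi1b were of another kind. They were dera, a deoxyribose-phosphate aldolase, at an RMS of 0.10, msrb1a, a methionine sulfoxide reductase, at 0.11, and amacr, a racemase of branched fatty acid breakdown, zgc:110697 and impdh2, an enzyme of guanine nucleotide synthesis, at 0.12 each. The median over all listed genes was 1.11. For gfi1ab in MO against Wt the nearest were cpa5, a carboxypeptidase, at 0.20, mpl, the thrombopoietin receptor, at 0.25, irf1b, an interferon regulatory factor, at 0.32, cfh, complement factor H, at 0.39 and zgc:152774 at 0.46, with a median of 1.98. cpa5 had 2698 to 2930 CPM in Wt and 382 to 468 CPM in MO.

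Genes beside each member in the annotation were looked up to see whether neighbours moved too. gfi1aa is flanked by rpl5a, evi5a, rpap2 and glmna, and gfi1ab by tomm70a, glmnb, evi5b and rpl5b, so that 3 of the 4 neighbours of one duplicate have their own duplicates beside the other. gfi1b lies by atp2a2b, bcr, tsc1b and gtf3c4. Of these 12 genes, 2 are listed, both for HE against ARE, where 25.0% of all genes that the authors tested are listed. The count therefore does not set the neighbours apart. rpap2, an RNA polymerase II-associated phosphatase, had 15.1 CPM in HE and 6.71 CPM in ARE on average (1.08 ± 0.25, limma, adjusted p = 0.00837). tomm70a, a mitochondrial import receptor, had 96.7 and 65.0 CPM (0.56 ± 0.15, limma, adjusted p = 0.0184). Both differences were smaller than those of gfi1aa and gfi1ab. Another annotated locus overlaps each of gfi1aa and gfi1ab. Because the sources do not say that strand was kept, reads of such pairs cannot be told apart.

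Gfi1 proteins repress through partner proteins, and of 29 such co-repressor genes, 5 (17.2%) are listed for HE against ARE, beside 25.0% of all genes that the authors tested. The share listed does not set the list apart. The 5 were called higher in HE, as were 38.0% of all listed genes, with a median of 0.92 beside −1.0 for all listed genes. The direction of so few genes was not tested as a set. gse1, a protein of histone deacetylase complexes, was higher by 1.24, rcor2, a CoREST protein, by 1.21, the histone H3 lysine methyltransferase suv39h1b by 0.92 and the arginine methyltransferase prmt5 by 0.80. The 5th, ehmt1a, another histone lysine methyltransferase, named after its value was seen, was higher by 0.60 and lost its call without any 1 of the 6 libraries (adjusted p up to 0.184). No co-repressor gene is listed in the MO comparisons.

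Of 10 other repressors that carry a SNAG domain, 3 (30%) have values, beside 25.0% of all genes that the authors tested. Those 3 were lower in HE, with a median of −2.72. As 56.5% of all listed genes were called lower, neither count sets the list apart. snai2 and snai1a, Snail-type repressors of epithelial genes, had differences of −4.99 and −2.72. The neural Scratch-type repressor scrt2 had −1.25 and did not pass after rescaling (−0.70, adjusted p = 0.456) or in 4 of the leave-outs. In MO HE only snai2 has values, and it did not pass (1.33, adjusted p = 0.471).

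Among 25 haemogenic and blood transcription factors, 12 (48%) are listed for HE against ARE, beside 25.0% of all genes that the authors tested. Of these, 8 were called higher and 4 lower, beside 38.0% and 56.5% of all listed genes, with a median of 0.81. myb, which blood stem cells require, was higher by 2.34 and znf296, a zinc-finger gene, by 1.75. etv2 and erg, ETS factors of endothelial cells, had −4.19 and −3.42. erg is in the list of the endothelial programme too, and is counted in both lists. After rescaling, 8 were higher and 2 lower. In MO HE, 7 (28%) are listed, beside 5.89% of all genes that the authors tested. Of these 4 rose and 2 fell, beside 26.3% called higher and 15.1% called lower among all listed genes. klf17 and gata1a, both erythroid factors, rose by 1.38 and 1.36, the myeloid factor spi1a rose by 1.12 and znf296 fell by 1.09, as did fli1a, named after its value was seen, by 0.73. After rescaling 0 rose and 2 fell, and without Wt HE replicate 1, 2 or 3, or MO replicate 2 or 3, between 1 and 3 of the 6 calls were left.

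The endothelial programme, which Gfi1 proteins are known to silence in the mouse, was lower in HE. Of 28 genes, 20 (71.4%) are listed, beside 25.0% of all genes that the authors tested. Of these, 19 were called lower and 1 higher, beside 56.5% and 38.0% of all listed genes, with a median of −3.27. After rescaling 17 were called lower and 1 higher. flt4 and tek, receptor tyrosine kinases, had −4.72 and −4.52, the secreted angiogenic factor egfl7 −4.32 and the junction protein cdh5 −3.65. kdrl, whose promoter drives the mCherry used to sort both groups, had 11.2, 7.69 and 26.1 CPM in HE and 78.7, 102 and 194 CPM in ARE (−3.04 ± 0.42, limma, adjusted p = 3.22e-04). ARE replicate 3 was the highest for kdrl as for gfi1aa and gfi1ab. The 1 gene higher in HE was sox17, a SoxF transcription factor, at 2.02, named after its value was seen. In MO HE, where gfi1ab fell, 6 of the 28 (21.4%) are listed, beside 5.89% of all genes that the authors tested. Of these 1 passed, beside 41.4% of all listed genes. It was sox17, which rose by 1.90. It did not pass after rescaling (1.15, adjusted p = 0.0749) or without Wt HE replicate 1 or 2, and 2 of the list passed without MO replicate 1 or 3. Of the other 5, which did not pass, hey2, a Notch target, had 1.69 (adjusted p = 0.0951), erg 1.41, the junction genes esama and cldn5b 1.28 and 1.26, and the receptor gene notch1b −1.51, all named after their values were seen. With the replicate block hey2 passed as well (limma, adjusted p = 0.00987). After rescaling the only call of the list was notch1b, which was lower in MO (−2.24, limma, adjusted p = 0.0115).

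**Figure D5:**
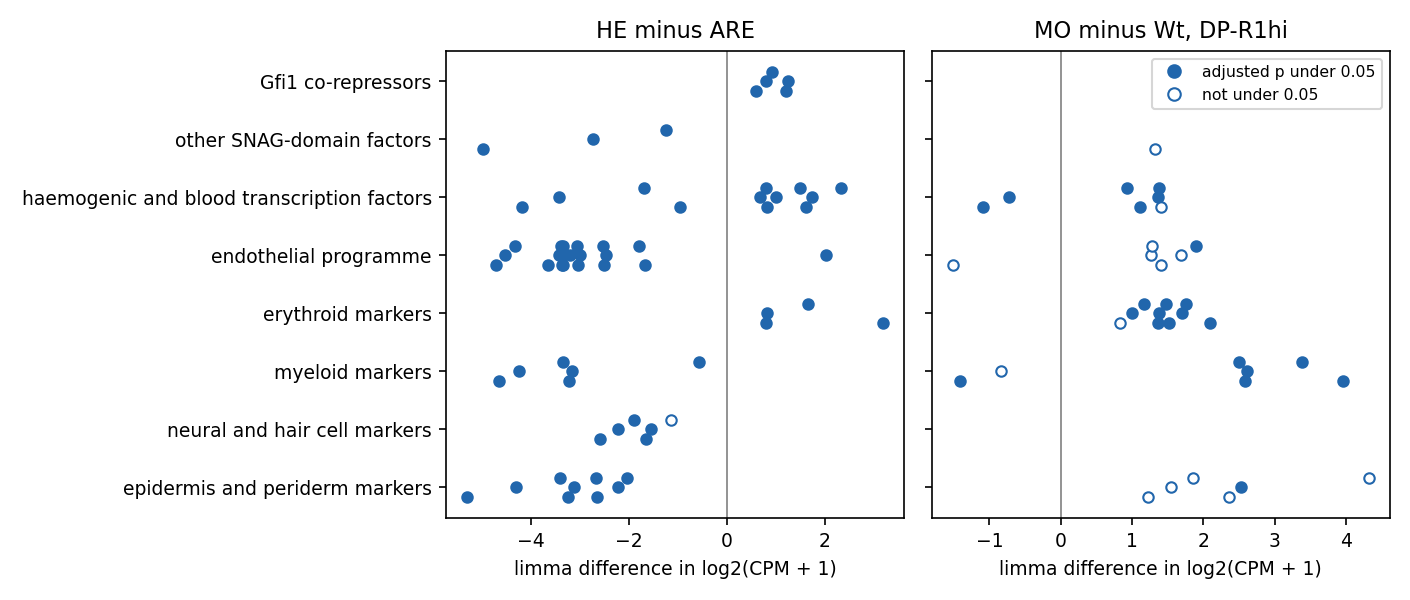
Limma difference in log2(CPM + 1) (x axis) of every listed gene of 8 gene lists (y axis, small vertical offsets separate points) for HE minus ARE and MO minus Wt in DP-R1hi, filled where the adjusted p was under 0.05. In HE minus ARE the 5 co-repressors lie right of 0 and 19 of 20 endothelial genes left of it, and in MO minus Wt the 9 filled erythroid genes lie right of 0.

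Markers of other cells moved with the gates as well, and their part in the results on gfi1aa, gfi1ab and gfi1b was not tested. In bulk samples fewer cells of a type and less RNA per cell cannot be told apart. Of 19 erythroid markers, 4 (21.1%) are listed for HE against ARE, beside 25.0% of all genes that the authors tested, and no globin is among them. All 4 were called higher in HE, as were 38.0% of all listed genes. Their summed level was 2434 to 2919 CPM in HE and 614 to 874 CPM in ARE. On average blf and znfl2a held 1206 and 904 CPM of it in HE, and 130 and 287 CPM in ARE. blf, a zinc-finger gene of the blood islands, was higher by 3.2, znfl2a by 1.66, klf17 by 0.83 and gata1a by 0.80, the last 2 being in the transcription factor list too. In MO HE, 10 (52.6%) are listed, beside 5.89% of all genes that the authors tested. Of these 9 rose, beside 26.3% called higher among all listed genes. Sums were 38365 to 50219 CPM in Wt and 108397 to 170803 CPM in MO, so that in this gate erythroid RNA was higher where gfi1ab was lower. With the replicate block all 10 passed. In DN cells the same list went the other way, with 8 genes (42.1%) listed, beside 1.53% of all genes that the authors tested. Of these, 4 were called lower in MO and 0 higher, where 22.7% of all listed genes passed. Sums were 1417 to 1836 CPM in Wt and 365 to 669 CPM in MO. Back in MO HE, the embryonic globins hbbe2, hbbe1.1, hbae3 and hbbe3 rose by 2.10, 1.76, 1.70 and 1.51, whereas all of them had lower values in MO in DN. In MO HE, 3 of the 9 rose after rescaling, and without Wt HE replicate 1 or 2 there were 3 and 5.

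Myeloid markers, 13 in the list, include 6 (46.2%) with values for HE against ARE, beside 25.0% of all genes that the authors tested. All 6 were called lower in HE, as were 56.5% of all listed genes. Their sums were 161 to 178 CPM in HE and 1013 to 1494 CPM in ARE. The chemokine gene ccl34a.4 had −4.66, the macrophage genes mpeg1.1 and mfap4 −4.24 and −3.22, and the receptor gene csf1ra −3.35. cxcr3.2, named after its value was seen, had −0.57 and turned to 0.28 after rescaling. In MO HE, 7 (53.8%) are listed, beside 5.89% of all genes that the authors tested. Of these 5 rose and 1 fell, beside 26.3% called higher and 15.1% called lower among all listed genes. ccl34a.4, mfap4, irf8 and mpeg1.1 rose by 3.96, 3.38, 2.61 and 2.58. The summed level nevertheless was 6033 to 8024 CPM in Wt and 3346 to 4992 CPM in MO, as the 2 members with most CPM had lower values in MO. Both were named after their values were seen. mpx, the neutrophil peroxidase, had 4305 CPM in Wt and 1649 CPM in MO on average, fell by 1.42 and did not pass in 3 of the leave-outs. coro1a, an actin-binding protein of white blood cells, had 2683 and 1519 CPM (−0.84, adjusted p = 0.0597) and passed after rescaling (adjusted p = 0.00297) and with the replicate block (adjusted p = 0.00407).

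Neural and hair cell markers were lower in HE, where gfi1aa and gfi1ab were higher. Of 11 genes 6 (54.5%) are listed, beside 25.0% of all genes that the authors tested. Of these 5 passed, all lower in HE, beside 94.5% of all listed genes passing and 56.5% called lower. Sums were 33.1 to 56.9 CPM in HE and 156 to 275 CPM in ARE. nova2, a neuronal splicing factor, had −2.59, the neural factor sox3 −2.23, the neuronal RNA-binding gene elavl4 −1.89 and myo7aa, a motor protein of hair cells, −1.65. None of the 11 is listed in MO HE. Of 11 epidermis and periderm markers, 9 (81.8%) are listed, beside 25.0% of all genes that the authors tested. All 9 were called lower in HE, as were 56.5% of all listed genes. Their sums were 138 to 259 CPM in HE and 1549 to 3671 CPM in ARE. The keratins krt4, krt5 and krt8 had −5.30, −4.31 and −3.40 and the adhesion gene epcam −3.23. In MO HE, 6 (54.5%) are listed, beside 5.89% of all genes that the authors tested. Their sums were 139 to 274 CPM in Wt and 599 to 3232 CPM in MO. Only icn, a calcium-binding protein of the skin, passed, where 41.4% of all listed genes did. It rose by 2.52 and lost its call without Wt HE replicate 2, and 3 of the 6 passed without MO replicate 3. With the replicate block 4 passed, the others being krt4 (4.32, adjusted p = 0.0165), krt8 (1.23, adjusted p = 0.00792) and epcam (1.86, adjusted p = 0.00696), named after their values were seen.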

How the data were processed

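Of 21 samples in 7 groups of 3, 15 in 5 groups have values in the tables. The SP-kdrl and DP-R1med gates were not analysed here. Per the labels, RNA with an integrity number above 8 was used, at 2.2 ng per SMARTer low-input library. The authors used Trimmomatic 0.32 for trimming, STAR for alignment to a genome their methods call Zv10, featureCounts for counting and edgeR for testing. The deposited CPM values, 6 columns in each of 3 tables, are their counts scaled to effective library sizes. The deposited p-value and false discovery rate columns were used only to recover how many genes the authors had tested, 10916 for HE against ARE and 11479 for the MO tables. Their fold change, mean CPM, likelihood ratio and off-target columns were not used. The number of unused per-sample columns was 0.

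Values in each column were whole multiples of 1 step (tolerance 1e-06). Taking 1 step as 1 read, effective library sizes were 13.8 to 19.3 M for HE against ARE, 9.72 to 17.6 M for MO DP-R1hi and 12.7 to 22.6 M for DN. Low values were too scarce in most columns for a strict test of this, and no count model was fitted. log2(CPM + 1) values were fitted with limma 3.58.1 (mean trend, two-sided) in R 4.3.3, a scale that understates changes of low genes. Benjamini-Hochberg adjustment used the number of genes that the authors tested, with each unlisted gene taken as p = 1, and the threshold was 0.05. No filter was applied. The script was tested on simulated data.

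The methods describe independent experiments on embryos pooled from several clutches, while the labels do not tie replicate numbers to them, so p-values rest on the spread among 3 libraries a group. The labels say that batches of embryos were split for injection. Deviations from the group means correlated between same-numbered MO and Wt DP-R1hi libraries at 0.128, 0.313 and 0.118, each above 0.1. Between libraries of different number the correlations ran from −0.299 to 0.118, so they do not settle the pairing. The numbers were used as pairs only in the replicate block, and every limma p-value given without it comes from a fit that ignored them.

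The members and the 8 gene lists were chosen with earlier results of these data known. Named were the members, kdrl, the 5 genes most like each member, and up to 4 genes per list with the largest difference among those that passed. Alternatives were pseudocounts of 0.25 and 5, a filter of 1 CPM in 3 libraries, rescaling by median ratios, no mean trend, adjustment over listed genes only, a replicate block and leaving out each library.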

Additional observations from a re-analysis of the deposited data

How the results depend on the processing

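gfi1aa, gfi1ab and gfi1b kept their direction and their call in HE against ARE under 13 of 13 alternatives each, with adjusted p from limma up to 2.45e-04, 1.78e-04 and 0.0400, and so did gfi1ab in MO (up to 0.00951). The differences between members kept their side of the threshold in 8 of 8 alternatives per pair, where no pair could pass. For gfi1aa minus gfi1ab the value was 0.0080 with a pseudocount of 0.25 and 1.36 with one of 5. The count of genes called was 1918 to 2725 in HE against ARE. The higher calls were 1037 of 2581, and 1099 of 1918 after rescaling. In MO against Wt, 280 genes were called, 158 without the mean trend, 661 when adjusted over the listed genes only, and 94 to 230 when 1 library was left out (101, 94 and 176 without Wt DP-R1hi replicates 1, 2 and 3). After rescaling 56 were higher and 237 lower, against 178 and 102. With the replicate block, 376 genes were called in MO against Wt and 2686 in HE against ARE, and no member's call changed. In HE against ARE, same-numbered libraries correlated at 0.0942, 0.183 and 0.267, the first of these under 0.1. Libraries of different number correlated at −0.212 to 0.0578, below all 3. With the replicate block the adjusted p of kdrl from limma was 1.15e-06, so the fit without it was the more cautious for this gene. For 35 other genes in HE against ARE, kdrl and genes named from the lists, 438 of 455 values kept direction and call. cxcr3.2 reversed, to 0.28 after rescaling by median ratios. For 25 genes named from the lists in MO against Wt, 263 of 325 did, 42 no longer passed, 20 newly passed and 0 reversed. Genes named only as most like a member, or as its neighbours, are not in these counts. Of the most alike, amacr and zgc:110697 lost their call in 5 of the leave-outs (limma, adjusted p up to 0.159 and 0.177). In MO against Wt, zgc:152774 lost it in 1 (limma, adjusted p = 0.0600). The rest of the most alike kept their call in every leave-out. No member could be fitted in DN. The few reads of gfi1ab in ARE, 40 over 3 libraries, limit how well its fold is known.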
